A study of Mus musculus and Rattus norvegicus with 2 samples.

Results

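The miR-34 and miR-449 miRNAs form a family that shares 1 seed, the short stretch near the 5′ end of a miRNA through which it recognises its target mRNAs. The members described here are the sequences whose matched entry, read without its species prefix and arm, is miR-34a, miR-34b, miR-34c, miR-449a, miR-449b or miR-449c. Of these 6 miRNAs, 4 had reads under their names, among 436 miRNAs with reads in either library, and miR-449b and miR-449c had none. The family held 20 distinct sequences in mouse and 185 in rat.

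The data are 2 small RNA libraries of purified sperm taken from the caput, the first segment of the epididymis where sperm arrive from the testis, with 1 library per species. The mouse library came from C57BL/6 animals aged 2 months and the rat library from young adult Sprague Dawley animals of 450 g. Per the labels, the fraction of 18 to 45 nt of the RNA was sequenced in both, and neither group carried a treatment or an engineered allele. The listed sequences ran from 18 to 96 nt in both libraries, so the totals used below also hold longer reads. How many animals each library holds is not given in the sources used here. Species, strain and library are the same split here and cannot be told apart, so a difference below is one between 2 libraries, with no replicate check and no test of species.

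In mammals, miR-34a is made by its own gene and is best known as a target of the tumour suppressor p53. miR-34b and miR-34c are cut from a shared primary transcript, and miR-449a, miR-449b and miR-449c from an intron of Cdc20b. These clustered members are known from male germ cells from meiosis onward and from multiciliated epithelia, such as that of the efferent ducts that join testis and epididymis, where they act redundantly. Each hairpin gives a miRNA from its 5′ side (5p) and one from its 3′ side (3p), of which usually 1 is kept.

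The mature sequences show why the members are read as 1 family, and where they can be told apart. They are printed 5′ to 3′ with the seed, bases 2 to 8, in capitals, and are the RefSeq sequences of mouse build GRCm38.p6, except that of miR-34c-5p, which is the most abundant deposited mouse read under that name, in DNA letters. RefSeq entries matched 9 of the family's arms.
miR-34a-5p: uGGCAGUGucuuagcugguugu
miR-34b-5p: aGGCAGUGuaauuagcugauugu
miR-34c-5p: aGGCAGTGtagttagctgattgc
miR-449a-5p: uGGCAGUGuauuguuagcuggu
miR-449c-5p: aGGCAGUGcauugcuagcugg
miR-34a-3p: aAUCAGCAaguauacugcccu
miR-34b-3p: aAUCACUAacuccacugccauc
miR-34c-3p: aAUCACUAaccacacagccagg
miR-449a-3p: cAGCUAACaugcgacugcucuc
miR-449c-3p: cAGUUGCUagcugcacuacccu

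All 5 printed 5p arms carry the seed GGCAGUG. miR-34b-5p and miR-34c-5p have 21 of 23 bases in common, and the 2 differences, counted from the 5′ end with miR-34b-5p first, are A11G and U23C. A read under 23 nt therefore tells these 2 members apart by base 11 alone. miR-449a-5p and miR-449c-5p differ at 3 of 21 bases. On the other side of the hairpin only miR-34b-3p and miR-34c-3p have a seed in common, AUCACUA, and they differ at 5 of 22 bases.

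The hairpins of miR-34c, miR-34b and miR-449a, the members with the most rat reads, are printed next, with both arms in capitals, because the first and last bases of the reads are described against them below. In GRCm38.p6 Mir34c is at chr9:51103034-51103110 and Mir34b at chr9:51103562-51103645, both on the minus strand and 451 bases apart. Both lie within the bounds of the protein-coding gene Btg4, which is on the other strand, and overlap none of its exons. Mir449a is at chr13:113037534-113037624 on the plus strand, in an intron of Cdc20b, which has the same strand.
Mir34c: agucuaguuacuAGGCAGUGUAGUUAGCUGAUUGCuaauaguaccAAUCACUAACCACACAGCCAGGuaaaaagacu
Mir34b: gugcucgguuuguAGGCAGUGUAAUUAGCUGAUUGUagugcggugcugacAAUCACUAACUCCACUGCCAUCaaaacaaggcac
Mir449a: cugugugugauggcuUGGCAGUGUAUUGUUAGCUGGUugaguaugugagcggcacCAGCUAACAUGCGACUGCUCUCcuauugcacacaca
Mir34a is at chr4:150068454-150068555 on the plus strand, within an exon of Gm37795, a transcript model that GENCODE lists as yet to be experimentally checked. Mir449c is at chr13:113035983-113036091, in an intron of Cdc20b and 1442 bases before Mir449a.

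The family was scarce in the mouse library and abundant in the rat library. Its members summed to 186 reads of 11760708 in mouse and 13213 reads of 14652889 in rat, which is 15.8 and 902 reads per 1000000 listed reads (rpm). The fold between the libraries was 56.9, a log2 ratio of rat over mouse of 5.83. Its exact conditional binomial 95% interval ran from 5.62 to 6.05. Like every interval below, it covers only the error of counting reads, with no spread between libraries. PCR copies could not be told from separate molecules, so the intervals may be too narrow even for counting. Read against miRNAs alone, the family was 0.0319% of mouse and 5.21% of rat reads under miRNA names. miR-10a and miR-10b took 84.7% of those reads in mouse and 41.9% in rat, and without them the family was 0.209% and 8.97%.

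The solitary miR-34a did not share this contrast. miR-34a-5p had 19 reads in mouse and 21 in rat, or 1.62 and 1.43 rpm. The log2 ratio was -0.18 (-1.14 to 0.80), so no difference per listed reads was detectable at this depth, and the interval spans values from below -1 to near 1. In mouse miR-34a was thus 10.2% of family reads (6.26 to 15.5, exact Clopper-Pearson 95% interval), whereas in rat it was 0.159% (0.0984 to 0.243). Scaled to reads under miRNA names, which moves every miRNA by the same factor, its ratio turned to 1.34, past 2-fold. The lack of a detectable difference is therefore stated for listed reads only.

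miR-34c led the family in both libraries. miR-34c-5p had 50 reads in mouse and 7364 in rat, or 4.25 and 503 rpm, which ranked it 80 among the 391 miRNA names with reads in mouse and 5 among the 377 in rat. The log2 ratio was 6.87 (6.48 to 7.32). The opposite arm, miR-34c-3p, had 70 reads in mouse and 166 in rat, or 5.95 and 11.3 rpm, with ranks of 66 and 70. Its ratio of 0.92 (0.52 to 1.35) lay far below that of the 5p arm of the same hairpin, and the intervals did not overlap.

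miR-34b, its neighbour in the primary transcript, did not show that split between arms. miR-34b-5p had 16 mouse and 959 rat reads, or 1.36 and 65.4 rpm, with a ratio of 5.54 (4.88 to 6.40). miR-34b-3p had 25 mouse and 1635 rat reads, or 2.13 and 112 rpm, with a ratio of 5.69 (5.15 to 6.35). Both arms were thus higher in rat by ratios whose intervals overlap.

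Among the members with reads, miR-449a had the highest ratio and the fewest mouse reads. miR-449a-5p had 6 reads in mouse and 3066 in rat, or 0.510 and 209 rpm, with ranks of 186 and 14. The ratio of 8.56 (7.56 to 10.1) lay above that of miR-34c-5p, and their intervals did not overlap. miR-449a-3p had 0 reads in mouse and 2 in rat, which is too few for a fold. For miR-34a-3p and for both arms of miR-449b and miR-449c, no read was listed by name in either library. With a limit of 3 reads for a count of 0, a one-sided bound that is lower than the 2-sided intervals used elsewhere, this allows up to 0.255 rpm in mouse and 0.205 rpm in rat. The order of the levels in rat was miR-34c-5p, miR-449a-5p, miR-34b-3p, miR-34b-5p, miR-34c-3p and miR-34a-5p, each apart from its neighbours beyond counting error. In mouse it was miR-34c-3p, miR-34c-5p, miR-34b-3p, miR-34a-5p, miR-34b-5p and miR-449a-5p, and there the intervals of neighbours overlapped, except those of miR-34c-5p (3.16 to 5.61 rpm) and miR-34b-3p (1.38 to 3.14 rpm).

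**Figure D1:**
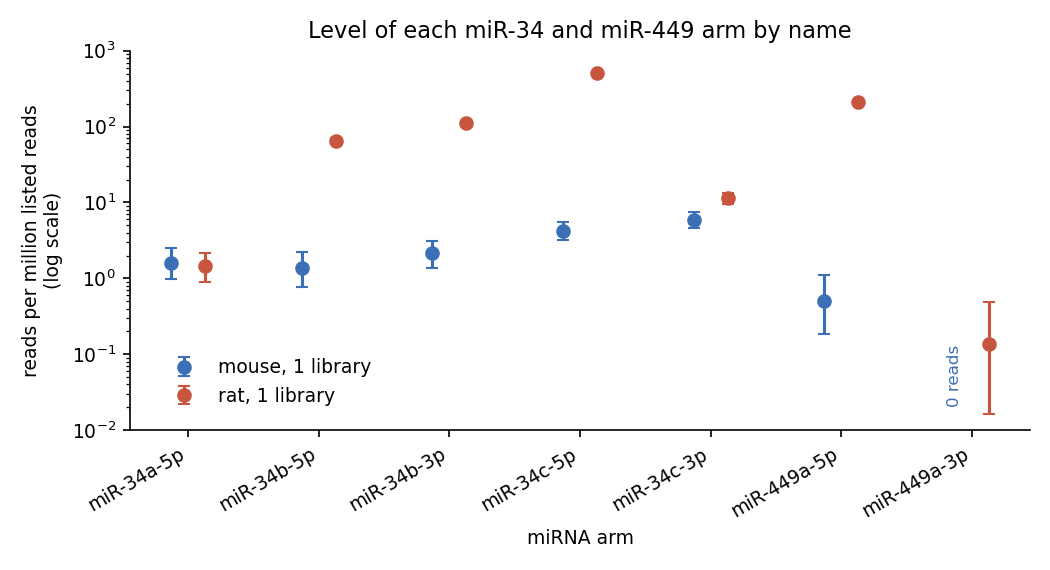
Reads per 1000000 listed reads of each arm, by name, on a log axis, in the mouse library (blue) and the rat library (red). Points are single libraries and bars are exact Poisson 95% intervals. miR-34a-5p overlaps between the libraries, miR-34c-3p is close at 5.95 and 11.3, and the other 4 arms with reads in both stand far apart.

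The other miRNAs show how common such differences were. Of all miRNA names, 86 had reads in both libraries and at least 100 reads over both, and 44 of them (51.2%) were at least 2-fold higher in rat, with 13 (15.1%) at least 2-fold lower. Of the family's arms, 5 passed this minimum, and miR-34a-5p and miR-449a-3p did not. Of the 5, 4 were at least 2-fold higher and 0 were lower, with a median log2 ratio of 5.69 beside 1.01 over all 86 names. With 6 to 70 mouse reads each, these 5 arms reached the minimum only through their rat reads, the library where they are high, so their count and median describe them and support nothing. Names with no mouse read, such as miR-743b-3p with 425 rat reads, are not among the 86. Scaled to reads under miRNA names, 82.6% of names were at least 2-fold higher in rat and 5.81% lower, and all 5 arms were then among the higher ones, which says little beside that share.

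**Figure D2:**
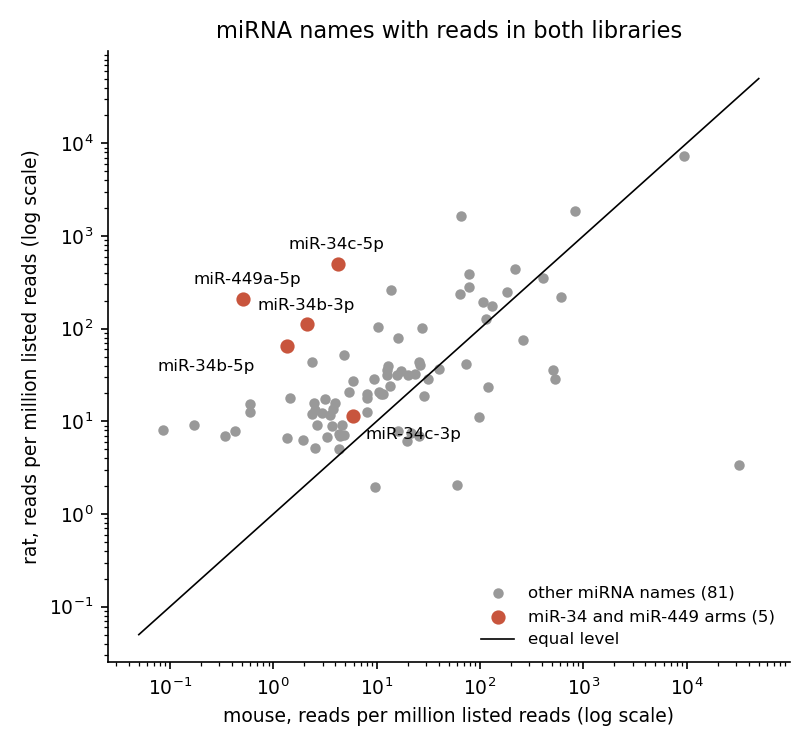
Level of 86 miRNA names in the mouse library (x axis) and the rat library (y axis), in reads per 1000000 listed reads on log axes, with the family's 5 compared arms in red. miR-449a-5p, miR-34c-5p and both miR-34b arms lie well above the line of equal level, and miR-34c-3p lies near the bulk of the other names.

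Outside the family, the 3 names whose ratio came closest to that of the family sum were miR-101b-3p, miR-150-5p and miR-148b-3p, by the distance between log2 ratios over these 2 libraries. miR-101b-3p had 1 mouse and 118 rat reads, a ratio of 5.99 (4.06 to 11.9). miR-150-5p, a leukocyte miRNA, had 2 and 133 reads, a ratio of 5.42 (3.86 to 8.80). miR-148b-3p had 764 and 23808 reads, a ratio of 4.64 (4.54 to 4.75), but by core sequence, explained below, it had 1463 and 1133 reads and a ratio of -0.69. By core sequence the ratio of miR-101b-3p was 3.62 and that of miR-150-5p was 4.55. The family sum, at 5.83 by name and 5.71 by core, depended less on the way of matching than these 3 names.

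The balance between the arms does not depend on any library total. The 5p arm gave 41.7% of miR-34c reads in mouse (32.7 to 51.02) and 97.8% in rat (97.4 to 98.1). Expressed as reads of the 5p arm per read of the 3p arm, this was 0.714 in mouse and 44.4 in rat, an odds ratio of 61.9 (41.1 to 94.0, exact conditional 95% interval). The 5p arm gave 39.02% of miR-34b reads in mouse (24.2 to 55.5) and 36.97% in rat (35.1 to 38.9), an odds ratio of 0.917 (0.468 to 1.85). The arms of miR-34b were therefore balanced alike within counting error, while the 5p share of miR-34c was higher in rat. In mouse the interval of miR-34c by name includes equal arms. By name or core sequence, a match explained below, the mouse share was 38.5% (30.5 to 46.96), and without mismatches it was 40.2% (31.03 to 49.9), so that the 3p arm led under these matches. By read number, of 29 miRNAs with reads of both arms in both libraries and at least 20 reads in each, the leading arm differed in 2 (6.9%), miR-34c and miR-199a, and the odds ratio of miR-34c was the second largest after that of miR-10b.

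**Figure D3:**
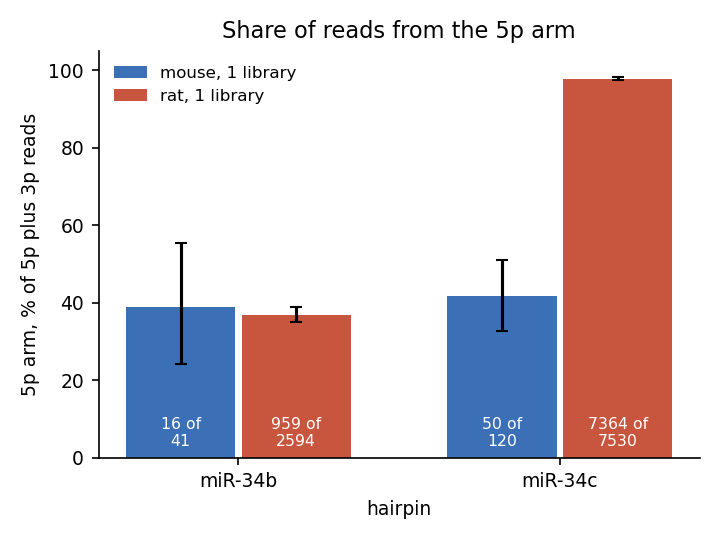
Share of reads from the 5p arm, in percent of 5p plus 3p reads, for miR-34b and miR-34c in the mouse (blue) and rat (red) libraries. Bars are single libraries, error bars are exact 95% binomial intervals, and the numbers give 5p reads of all reads. Only the rat bar of miR-34c, at 97.8%, lies above 60%.

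Because miR-34b and miR-34c come from 1 transcript, the same arms can also be set against each other within a library. In the 5p arms, miR-34c had 3.13 reads per miR-34b read in mouse and 7.68 in rat, an odds ratio of 2.46 (1.30 to 4.41). In the 3p arms, miR-34c had 2.8 reads per miR-34b read in mouse and 0.102 in rat, an odds ratio of 0.0364 (0.0215 to 0.0600). The 3p arms were thus ordered oppositely in the 2 libraries, and the 5p arms were not. With reads found by name or core sequence, these odds ratios were 2.42 (1.31 to 4.25) and 0.0468 (0.0309 to 0.0700).

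The names did not hold all family reads. A read was matched by core sequence when it contained bases 2 to 20 of an arm's leading exact read or of its RefSeq sequence, whatever entry it was listed under. No core was used for miR-449b. By core the family had 225 mouse and 14722 rat reads, a log2 ratio of 5.71 (5.52 to 5.91). Of these, 80% in mouse and 86.9% in rat were listed under the miRNA's name. A further 20% in mouse and 10.8% in rat were listed under GenBank records of the precursors, and 2.28% in rat, 335 reads, under a piRNA record. All 45 mouse and all 1927 rat reads under the precursor and piRNA records reached past the reference form at one end or the other. Of miR-34b-3p, 43.9% of core reads in mouse and 33.3% in rat were under the precursor, and of miR-34c-5p, 9.26% and 7.25%. The arms below are therefore described over reads found by name or by core, 231 in mouse and 15140 in rat. In this set miR-34c-3p, with 88 and 232 reads, passed 2-fold at a ratio of 1.08 (0.72 to 1.45), and miR-34a-5p, with 22 and 27 reads, stood at -0.03 (-0.89 to 0.86). For miR-449a-3p the core gave 8 rat reads, with rat letters that differ from the mouse sequence above, and no mouse read. The cores of miR-449c-5p, miR-449c-3p and miR-34a-3p gave no read in either library.

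The same forms led both libraries for miR-34c and miR-34b. The 23-nt read of miR-34c-5p printed above made up 43 of the 55 reads of its arm in mouse (78.2%, 65.0 to 88.2) and 6165 of 8193 in rat (75.2%, 74.3 to 76.2). The 24-nt form that adds the next hairpin base followed in each library, with 5 and 481 reads. The RefSeq form of miR-34b-5p made up 82.4% of its 17 reads in mouse and 87.1% of 1046 in rat. That of miR-34b-3p made up 48.8% of 43 in mouse and 41.9% of 2428 in rat. For miR-34c-3p the share was 69.3% of 88 in mouse (58.6 to 78.7) and 34.9% of 232 in rat (28.8 to 41.4), so this arm was more uniform in mouse beyond counting error.

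miR-449a-5p was shorter in rat than its reference. The leading rat form had 20 nt and ended 2 bases before the reference end, and the full 22-nt form came second. They are printed with the seed in capitals to show that only the 3′ end differs.
miR-449a-5p, 20 nt: tGGCAGTGtattgttagctg
miR-449a-5p, 22 nt: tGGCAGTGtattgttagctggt
In rat the 20-nt form made up 1750 of 3206 reads (54.6%, 52.8 to 56.3), and in mouse 1 of 6, and the 22-nt form had 934 (29.1%) and 4. The 6 mouse reads do not allow a comparison of these shares. Of 90 rat miRNA names with at least 100 reads, 14 (15.6%) had a modal length of 20 nt or less, among them miR-449a-5p, and in mouse 7 of 60 (11.7%) did. The modal length was 23 nt for miR-34c-5p and miR-34b-5p and 22 nt for both 3p arms, in mouse as in rat.

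**Figure D4:**
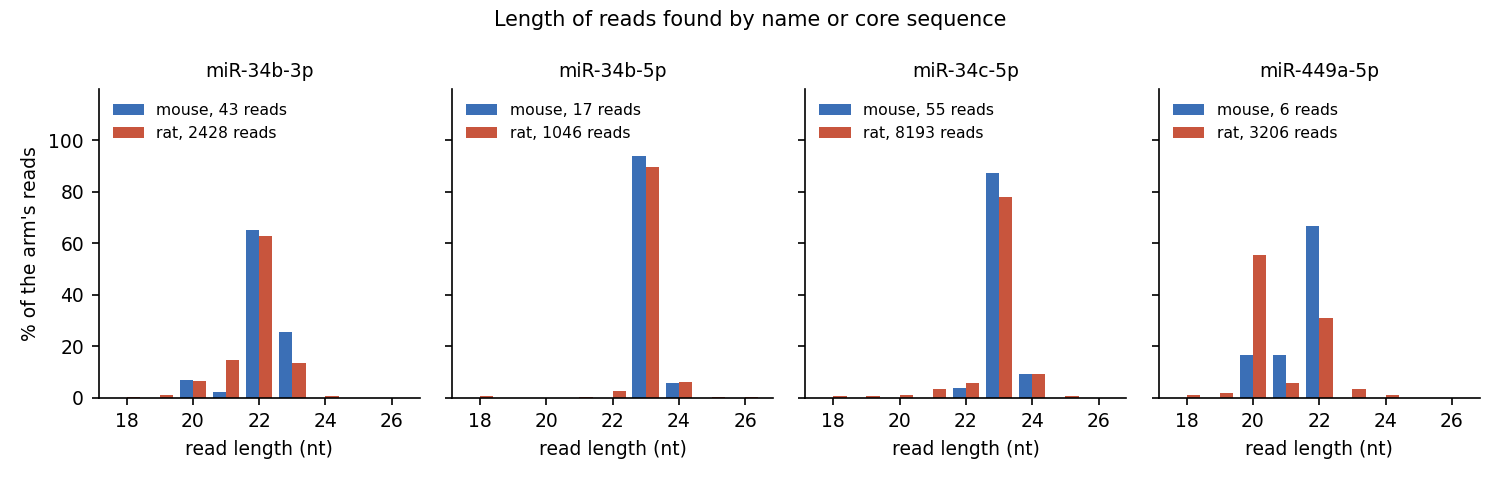
Length of the reads of 4 arms, in percent of the arm's reads, over reads found by name or core sequence in the mouse (blue) and rat (red) libraries. The modal length is 22 nt for miR-34b-3p and 23 nt for miR-34b-5p and miR-34c-5p in both, and miR-449a-5p peaks at 20 nt in rat. The mouse bars of miR-449a-5p rest on 6 reads.

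The first base decides which seed a miRNA carries, and it was not fixed in miR-34b. Of miR-34b-3p reads, 26.2% in rat (24.5 to 28.0) and 18.6% in mouse (8.39 to 33.4) began 1 base after the reference start, which turns the seed AUCACUA into UCACUAA. Of miR-34b-5p reads, 6.21% in rat (4.83 to 7.85) and 1 of 17 in mouse began 1 base before it, with the seed AGGCAGU. The leading shifted form of each arm follows, with its own bases 2 to 8 in capitals.
miR-34b-3p, shifted: aTCACTAActccactgccatca
miR-34b-5p, shifted: tAGGCAGTgtaattagctgattgt
The shifted miR-34b-3p form had 222 rat and 5 mouse reads, and the shifted miR-34b-5p form had 45 and 1. The shares of shifted reads overlapped between the libraries for both arms. In miR-34c the start was nearly fixed: 99.5% of rat miR-34c-5p reads and 100% of mouse ones began at the reference base, as did 96.6% and 97.7% of miR-34c-3p reads. In miR-449a-5p it was 99.97% in rat. In rat, 636 miR-34b-3p reads thus carried the shifted seed, against 8 of miR-34c-3p, although both 3p arms begin with the same 10 bases in their reference forms.

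**Figure D5:**
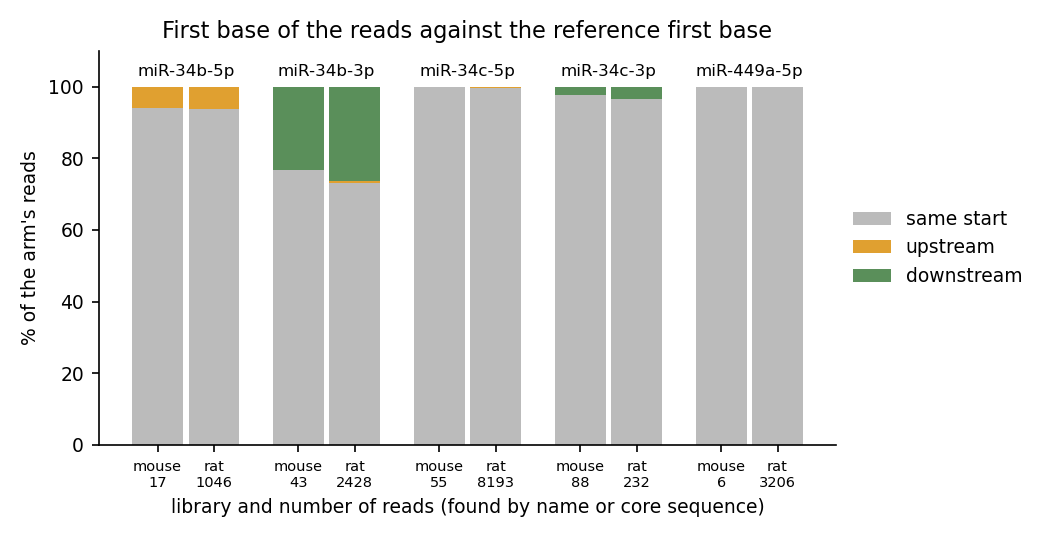
First base of the reads of 5 arms against the reference first base, in percent of the arm's reads, with the library and its number of reads under each bar. Grey is the reference start, orange an earlier and green a later one. In both libraries the later start is most frequent in miR-34b-3p, at 26.2% for 1 base in rat and 18.6% in mouse.

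Counted by seed alone, whatever entry a read was listed under, reads of 18 to 25 nt with GGCAGUG at bases 2 to 8 came to 12350 in rat, of which 99.7% were family reads. In mouse there were 154, of which 63.0% were family reads, and the rest were listed under other entries or outside the forms matched here. As rpm this was 843 in rat and 13.1 in mouse. Reads with AUCACUA at the same place were 1997 in rat and 130 in mouse, with 99.7% and 91.5% from the family.

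Some reads ended in bases that the mouse hairpin does not hold. In rat, tails of T counted this way were mostly on the 3p arms. A tail of T alone, a U in the RNA, was found on 21.2% of miR-34b-3p reads in rat (19.6 to 22.9) and on 30.2% in mouse (17.2 to 46.1). For miR-34c-3p it was 17.7% in rat (13.0 to 23.2) and 7.95% in mouse (3.26 to 15.7), and these intervals overlapped. For miR-34c-5p in mouse it was 7.27% of 55 reads (2.02 to 17.6). For the 5p arms in rat, T tails were 1.20% of miR-34c-5p, 1.43% of miR-34b-5p and 0.374% of miR-449a-5p reads. The hairpin base after miR-34c-5p, miR-34c-3p and miR-449a-5p is U, so a single T added to their full form was not counted. The 24-nt miR-34c-5p form that ends in this T had 481 rat reads, 5.87% of its arm. The shares of T tails on 5p and 3p arms are therefore not like for like. Tails of A alone were on 8.19% of rat miR-34c-3p, 4.31% of miR-34c-5p and 3.49% of miR-449a-5p reads, and on 0.478% of miR-34b-5p and 0.288% of miR-34b-3p reads. Both miR-34b arms are followed by an A in the hairpin, so an A added to their full form was not counted. The shares of A tails therefore cannot be compared between these arms. The rat hairpins were not used here, so a rat base that differs from the mouse hairpin would count as a tail.

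Summed over their members, other miRNA groups of germ cells and of the duct gave smaller differences between the libraries. Single names within these groups moved further than the sums, and in both directions. The testis-enriched cluster on the X chromosome, which includes miR-741, miR-743 and miR-871, had 263 mouse and 2056 rat reads, a ratio of 2.65 (2.46 to 2.84). Per read of that cluster the family had 0.707 reads in mouse and 6.43 in rat, a difference of 9.08-fold (7.46 to 11.1). With both found by core sequence this was 4.70-fold (3.92 to 5.63), and the ratio of the cluster itself was 3.49 (3.32 to 3.66). Its 2 leading names, miR-743b-3p with 425 and miR-871-5p with 390 rat reads, had no mouse read under those names. Of the cluster, 3 names were compared, 2 of them past 2-fold higher and 1 past 2-fold lower, with a median of 3.59. The miR-200 family of epithelial cells, led by miR-141-3p with 1256 mouse and 2862 rat reads and miR-429-3p with 189 and 1170, had 2430 and 4961 reads in all. Its ratio was 0.71 (0.64 to 0.78), and per read of it the miR-34 and miR-449 family was 34.8-fold higher in rat (29.8 to 40.7). Of its 5 compared names, 3 were higher and 1 lower, with a median of 1.34. The miR-183 cluster, also epithelial and sensory, had 11076 and 5616 reads, with a ratio of -1.30 (-1.34 to -1.25). It was led by miR-182-5p with 4806 and 5178 reads and miR-183-5p with 6206 and 420, and per read of it the family was 140-fold higher in rat (121 to 163). By core sequence the family was 33.9-fold higher per read of the miR-200 family and 179-fold per read of the miR-183 cluster. The family was higher per read of all 3 groups in rat under both matches, by factors that do not depend on the library total.

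Lists for other cell types moved with the contrast as follows. Leukocyte miRNAs had 53 mouse and 387 rat reads, a ratio of 2.54 (2.13 to 2.99), and smooth muscle miRNAs had 9961 and 27180, a ratio of 1.13 (1.10 to 1.16). By core sequence these ratios were 2.25 (1.95 to 2.58) and 0.83 (0.80 to 0.86), so smooth muscle fell below 2-fold. Erythroid miRNAs stood at -0.37 (-0.83 to 0.09), with 84 and 81 reads. Their leading names went opposite ways, miR-486-5p with 80 mouse and no rat reads and miR-451-5p with none and 68. By core the list had 639 mouse and 510 rat reads and stood at -0.64 (-0.81 to -0.47). Most reads of this list were thus under other entries, and the opposite ways hold for the names only. For endothelial miR-126 the ratio was 0.75 (0.50 to 1.01), with 188 and 395 reads, and for the wider list of duct epithelium 0.74 (0.67 to 0.81), with 2648 and 5504. By core these 2 ratios were 0.75 and 0.62. In the mouse library, reads under mRNA records were placed on transcripts of marker genes. Post-meiotic germ cell transcripts had reads for 7 of 7 genes, 31.7 rpm in all (28.6 to 35.1), led by Smcp and Prm2, which encode proteins of the sperm mitochondrial sheath and of sperm chromatin. The list for the caput epithelium held Lcn5, Lcn8, Crisp1, Rnase10, Spink13 and every gene whose symbol begins with Defb. The Defb genes were taken by symbol, whether or not they are known from the caput. The list had 949 rpm over 30 of 48 genes, led by Lcn5 at 188 rpm. Transcripts known from the duct epithelium, such as Lcn5, were thus listed in the library of purified sperm. Multiciliated cell transcripts had 13.0 rpm over 6 of 7 genes, led by Ccno with 100 of 153 reads, while Foxj1, the master regulator of motile cilia, had 5 reads and Cdc20b, the host gene of miR-449, had 0. The same count was not made in rat, so the part of ciliated or other cells in the family's difference was not tested. In such bulk samples, fewer cells of a type and less RNA per cell cannot be told apart.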

How the data were processed

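Each deposited table lists distinct sequences with whole, unnormalised read counts, the strand, 1 matched entry from miRBase, Rfam, GenBank or piRNA records, and up to 2 mismatches, per the file headers. Bowtie 0.12.7 and the builds mm9 and rn5 are named in the submitters' processing notes, with no role. How reads were trimmed is not given in the sources used here. A sum at the foot of the mouse table was dropped. The tables list 40.6% of mouse and 51.3% of rat sequence numbers, and sequences with other numbers were not analysed here, so every level is one among listed reads. Listed reads came to 11760708 in mouse and 14652889 in rat.

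Reads on the minus strand were turned, and all family reads found by name were on the plus strand. Core matches to the family were taken from the plus strand only. Counts were divided by listed reads, with a pseudocount of 0.5 read in log2 ratios, and no fold was given with 0 reads in a library. Names without an arm were paired with the more abundant unmatched arm. Lists took core matches up to 30 nt. Read starts were placed on the mouse RefSeq hairpin (GRCm38.p6), and gene bounds and exons are from GENCODE vM21 on GRCm38. For mRNA markers, a whole read had to lie on transcripts of 1 gene only. Every arm was described, with the 3 miRNAs closest in ratio and the 2 leading names of each compared group. The members and lists were chosen with earlier results of these data known. On counts simulated as Poisson draws, which is what the intervals assume, 95.9% of intervals over 122 names held the true ratio. This checks the calculation only, since the simulation held no PCR copies. Alternatives were the total, mismatches, length, core match, distinct sequences, minimum reads and pseudocount. Python 3.11.15, pandas 2.3.3 and SciPy 1.17.1 were used.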

Additional observations from a re-analysis of the deposited data

How the results depend on the processing

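The family's log2 ratio of rat over mouse was 5.83 and kept its direction, past 2-fold, under all 12 alternatives. With another total it was 7.35 per reads under miRNA names, 5.42 with miR-10 left out of these, 5.62 without the most abundant sequence of each library and 5.23 without SNORD58. The name SNORD58 held 34.2% of listed reads in mouse and 0 in rat, so leaving it out changed the mouse total only. Counted as distinct sequences it was 3.67, and without the leading family sequence of each library 5.49. miR-34b, miR-34c-5p and miR-449a-5p stayed past 2-fold under all 11 alternatives each, miR-34c-3p ran from 0.32 to 2.44 and miR-34a-5p from -0.78 to 1.63. The count of names at least 2-fold higher was 73 with no minimum, 12 with a minimum of 1000 reads and 71 per miRNA reads, against 44, and that of lower names was 37, 7 and 5, against 13. In rat, the 5p share of miR-34c was 98.3% without mismatches, 97.3% by core and 97.2% by name or core, and that of miR-34b was 30.1% by core and 30.1% by name or core. Among distinct sequences, the shifted starts were 42.9% of mouse and 31.8% of rat miR-34b-3p and 33.3% and 20.6% of miR-34b-5p, and 22.2% of rat miR-34b-3p reads without mismatches. The X-linked cluster stood at 4.16 per miRNA reads and 3.49 by core, the miR-200 family at 2.23 and 0.64, and the miR-183 cluster at 0.22, with the sign turned, and -1.76. Per read of the X-linked cluster, the family was 9.08-fold higher in rat by name and 4.70-fold by core, and per read of the miR-183 cluster 140-fold and 179-fold. Matching by name or core, and family and groups both by core, was chosen after seeing the data. Mouse values limit every comparison, with 6 to 70 reads per arm. No paired analysis was possible because each species has 1 library.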
